A study of Mus musculus with 9 samples.

Results

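Genes of the elastic fiber, and Mgp, an inhibitor of calcification, were followed in RNA from the endothelium of the mouse thoracic aorta, with and without induced deletion of 3 MEF2 transcription factors. The group holds 10 genes chosen by symbol: Eln, Fbn1, Fbln2, Fbln5, Lox, Loxl1, Mgp, Emilin1, Ltbp4 and Efemp2. The array annotation used here named 8 of them, each on 1 transcript cluster (the array's feature for a transcript), among 30142 named genes. Fbn1 and Efemp2 were not analysed here. All 8 named genes were bright enough to be tested, in a table of 16403 tested genes.

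The series compares ACDiEKO mice with controls. In ACDiEKO mice both copies of Mef2a, Mef2c and Mef2d were floxed (f/f), and the mice were positive for Cdh5-CreERT2, a tamoxifen-switched recombinase driven by the promoter of an endothelial cadherin. Controls were littermates with the same floxed alleles and no Cre. Every mouse was female, was 10 weeks old and received 5 daily doses of tamoxifen. The series text gives the harvest at day 7 after the first dose and the sample protocols at day 14, so the day of harvest is uncertain. RNA was flushed with TRIzol from the lumen of single aortas, and 5 ng of each was put on a Clariom D mouse array, 4 control and 5 ACDiEKO arrays in all. Controls lacked the recombinase, so effects of Cre and of the deletions cannot be told apart.

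Elastic fibers let the aortic wall recoil with each heartbeat. Tropoelastin, the product of Eln, is deposited on fibrillin microfibrils with the help of fibulins and of the latent TGF-beta binding protein LTBP4, and lysyl oxidases cross-link it into elastin. Smooth muscle cells make most of it in the aortic wall, and endothelial cells contribute to the internal elastic lamina beneath them. MGP (matrix Gla protein), which becomes active after vitamin K dependent carboxylation, binds calcium and BMP ligands, and mice that lack it calcify their arteries.

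ACDiEKO replicates 1 and 2 were near-identical. Across brighter features the robust SD between them was 0.0707, while every other within-group pair of arrays gave 0.268 to 0.401. They were averaged and counted as 1 sample, written ACDiEKO 1+2, so 4 samples were compared with 4. For the 8 genes described here, these arrays lay 0 to 0.12 log2 units apart. Array medians ran from 6.17 to 6.23 in controls and from 6.13 to 6.15 in ACDiEKO. All values are the deposited log2 values, which reach 19.34. A 16-bit scanner spans fewer units, so an unstated scaling step was applied, and differences are given in log2 units of these values and never as folds. The 3 floxed genes did not pass: Mef2a differed by 0.12, Mef2c by 0.06 and Mef2d by 0.23 (limma without the filter, adjusted p = 0.493, 0.663 and 0.144). Their array values summarise whole transcripts, including parts outside the deleted exons, and so do not check the genotype.

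Mgp and Fbln2 fell clearly in ACDiEKO, Ltbp4 fell slightly and Loxl1 rose. Eln itself lay lower in every ACDiEKO sample than in any control, by 0.68, and missed the test. Fbln5, Emilin1 and Lox did not pass. Among the 8 genes, 3 were called lower (background 7.33% of tested genes) and 1 was called higher (background 8.92%), at an adjusted p of 0.05 in limma. In either direction 4 were called, against 16.3% of all tested genes. The sample ranges of the groups did not overlap for 5 of the 8, against 23.0% of tested genes. Ranges that met at a tied value, as for Fbln5 (16.46) and Emilin1 (8.44), were counted as overlapping. The median difference was -0.32 over the 8 genes and -0.03 over all tested genes. With only 8 genes these shares describe the group and are not a test.

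**Figure D1:**
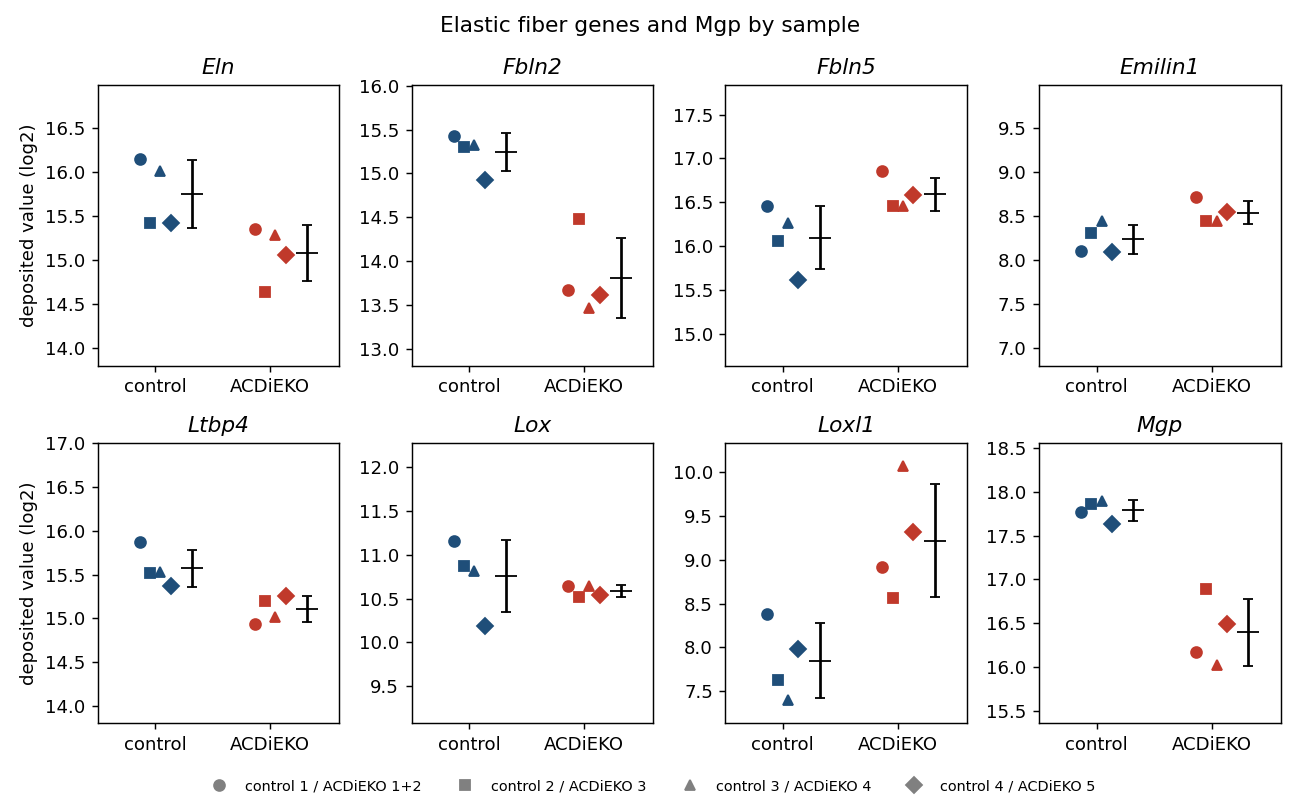
Deposited log2 values of the 8 named genes in 4 control and 4 ACDiEKO samples; each symbol is a sample (shapes do not pair samples), bars are mean ± SD, and every panel spans the same number of log2 units. Mgp, Fbln2, Eln and Ltbp4 lie lower and Loxl1 higher in ACDiEKO without overlap. The groups of Fbln5 and of Emilin1 meet at a tied value, and those of Lox overlap.

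Eln encodes tropoelastin, the core of the fiber. Its value was 16.16, 15.42, 16.02 and 15.42 in control replicates 1 to 4, and 15.35, 14.63, 15.28 and 15.06 in ACDiEKO 1+2, 3, 4 and 5. Control replicates 2 and 4 lay just above ACDiEKO 1+2, and ACDiEKO replicate 3 was the lowest. The means were 15.75 ± 0.39 and 15.08 ± 0.32 (SD, n = 4 and 4), a difference of -0.68 with a 95% interval from -1.19 to -0.16 (limma, adjusted p = 0.0770). Eln passed under none of the 22 alternative settings tried, where its adjusted p in limma ran from 0.0566 to 0.186 and its direction stayed negative.

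Fibulins are extracellular glycoproteins that bind tropoelastin and microfibrils. Among the genes described here, Fbln2 fell and Fbln5 did not pass, with a positive difference. Fbln2 encodes fibulin-2, which is concentrated in the subendothelial matrix. Its value was 15.43, 15.30, 15.32 and 14.93 in control replicates 1 to 4, and 13.68, 14.48, 13.47 and 13.61 in ACDiEKO 1+2, 3, 4 and 5. Only ACDiEKO replicate 3 came within 1 log2 unit of the controls, and no values overlapped. Fbln2 fell from 15.25 ± 0.22 to 13.81 ± 0.46 (SD, n = 4 and 4), a difference of -1.44 with a 95% interval from -1.95 to -0.92 (limma, adjusted p = 0.00516). It kept its call when each of the 8 samples was left out in turn (highest adjusted p in limma 0.0187). Of all tested genes, 2.89% had a larger absolute difference.

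Fbln5 encodes fibulin-5, which links elastin to integrins of the cell surface. It measured 16.46, 16.06, 16.26 and 15.61 in control replicates 1 to 4, and 16.86, 16.46, 16.46 and 16.59 in ACDiEKO 1+2, 3, 4 and 5. Control replicate 1 reached the level of ACDiEKO replicates 3 and 4, and control replicate 4 was the lowest. The difference was 0.49 with a 95% interval from 0.07 to 0.92 (limma, adjusted p = 0.105). With all 9 arrays as samples it passed narrowly (0.55, limma adjusted p = 0.0490).

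The contrast between Fbln2 and Fbln5 was read within each sample, which removes any shift common to an array. Fbln2 minus Fbln5 was -0.85 ± 0.16 in controls and -2.78 ± 0.54 in ACDiEKO (SD, n = 4 and 4), so it differed by -1.93 between the groups (exact permutation test, two-sided, p = 0.0286). That is the smallest p that 70 assignments of 8 samples can give. The Benjamini-Hochberg value over the 2 pairs computed was 0.0286. Fbln2 alone already separated the groups and Fbln5 differed the other way, so this p is not separate evidence. Probe sets have no common scale, so the level of Fbln2 against Fbln5 in a sample is not read.

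The start regions of these fibulins are shown because the genes are relatives whose differences had opposite signs. Each line gives the 250 bases before a start site (the first of 2 for Fbln5) in RefSeq (build GRCm38.p6), read 5′ to 3′ on the gene's strand. Capitals mark matches to the E-box letters CANNTG.
Fbln2, chr6:91212514-91212763, plus strand: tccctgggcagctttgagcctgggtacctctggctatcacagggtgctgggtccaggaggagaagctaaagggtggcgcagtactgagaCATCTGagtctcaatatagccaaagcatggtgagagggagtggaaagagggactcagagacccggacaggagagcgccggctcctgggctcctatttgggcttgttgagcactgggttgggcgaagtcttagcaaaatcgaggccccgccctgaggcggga
Fbln5, chr12:101819120-101819369, minus strand: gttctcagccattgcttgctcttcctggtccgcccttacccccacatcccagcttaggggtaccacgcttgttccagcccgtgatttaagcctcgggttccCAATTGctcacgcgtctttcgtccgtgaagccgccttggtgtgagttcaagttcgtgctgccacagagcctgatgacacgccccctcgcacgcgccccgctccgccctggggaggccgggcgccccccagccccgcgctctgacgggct

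Windows were found for 4 of the 8 genes: Fbln2, Fbln5, Emilin1 and Ltbp4. The motifs searched, on both strands, were the MEF2 consensus, the CArG box, the E-box CANNTG, the SMAD motif CAGAC, the TATA box TATAAA and the AP-1 motif TGANTCA. Each printed window holds 1 E-box and no other of these motifs. Of the 32851 windows of this length in the table, 66.2% hold an E-box, 42.2% the SMAD motif, 2.92% the MEF2 consensus and 1.47% the CArG box. The TATA letters stand in 12.4% of them and the AP-1 letters in 6.75%. Emilin1 holds 1 E-box and 2 SMAD motifs, the second Fbln5 window 2 SMAD motifs, and the Ltbp4 windows, of which a pair overlaps, 1 or 2 E-boxes each. Neither the MEF2 consensus nor the CArG box stands in any window of the 4 genes. This says only that the letters are not in these windows.

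Ltbp4 and Emilin1 act in microfibril assembly and at the surface of the elastic fiber. LTBP4 brings fibulin-5 to microfibrils and holds latent TGF-beta. Ltbp4 measured 15.87, 15.52, 15.53 and 15.37 in control replicates 1 to 4, and 14.94, 15.20, 15.02 and 15.26 in ACDiEKO 1+2, 3, 4 and 5. Control replicate 4 and ACDiEKO replicate 5 came closest, without overlap. It fell from 15.57 ± 0.21 to 15.10 ± 0.15 (SD, n = 4 and 4), a difference of -0.47 with a 95% interval from -0.75 to -0.19 (limma, adjusted p = 0.0362). The call ended when arrays were centred on their medians (-0.41, limma adjusted p = 0.0630). It also ended without ACDiEKO 1+2 (0.0927), ACDiEKO replicate 3 (0.0568) or 4 (0.0976), and without control replicate 1 (0.0561), 2 (0.0679) or 3 (0.0705).

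EMILIN1 sits between elastin and microfibrils and restrains TGF-beta maturation. Emilin1 measured 8.10, 8.31, 8.44 and 8.10 in control replicates 1 to 4, and 8.72, 8.44, 8.44 and 8.55 in ACDiEKO 1+2, 3, 4 and 5. Control replicate 3 reached the lowest ACDiEKO samples. The difference was 0.30 with a 95% interval from 0.06 to 0.55 (limma, adjusted p = 0.0901). It passed after quantile normalization (0.37, limma adjusted p = 0.0488) and with all 9 arrays as samples (0.34, limma adjusted p = 0.0404).

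Lysyl oxidases oxidise lysine side chains of tropoelastin and collagen so that they cross-link. Loxl1, the member tied most closely to elastin, rose. It measured 8.38, 7.63, 7.40 and 7.98 in control replicates 1 to 4, and 8.92, 8.56, 10.07 and 9.32 in ACDiEKO 1+2, 3, 4 and 5. The highest control, replicate 1, lay just under ACDiEKO replicate 3, and ACDiEKO replicate 4 was the highest of all. The means were 7.85 ± 0.43 and 9.22 ± 0.65 (SD, n = 4 and 4), a difference of 1.37 with a 95% interval from 0.59 to 2.14 (limma, adjusted p = 0.0289). Its adjusted p in limma was 0.0513 without ACDiEKO 1+2, 0.0614 without ACDiEKO replicate 5, and 0.0732, 0.0738 and 0.0635 without control replicates 2, 3 and 4. It was 0.162 without control replicates 3 and 4 together, whose animal numbers lie apart from all others, at a difference of 1.21.

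Lox encodes lysyl oxidase, the founding enzyme of the family. Its value was 11.16, 10.87, 10.82 and 10.19 in control replicates 1 to 4, and 10.65, 10.52, 10.65 and 10.54 in ACDiEKO 1+2, 3, 4 and 5. The ACDiEKO samples lay inside the control range, which control replicate 4 stretched downward. The difference was -0.17 with a 95% interval from -0.60 to 0.25 (limma, adjusted p = 0.556). Lox minus Loxl1 within a sample was 2.91 ± 0.54 in controls and 1.37 ± 0.61 in ACDiEKO (SD, n = 4 and 4). The change was -1.54 (exact permutation test, two-sided, p = 0.0286, the smallest possible, and 0.0286 over the 2 pairs). Loxl1 alone already separated the groups, so this p is not separate evidence.

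**Figure D2:**
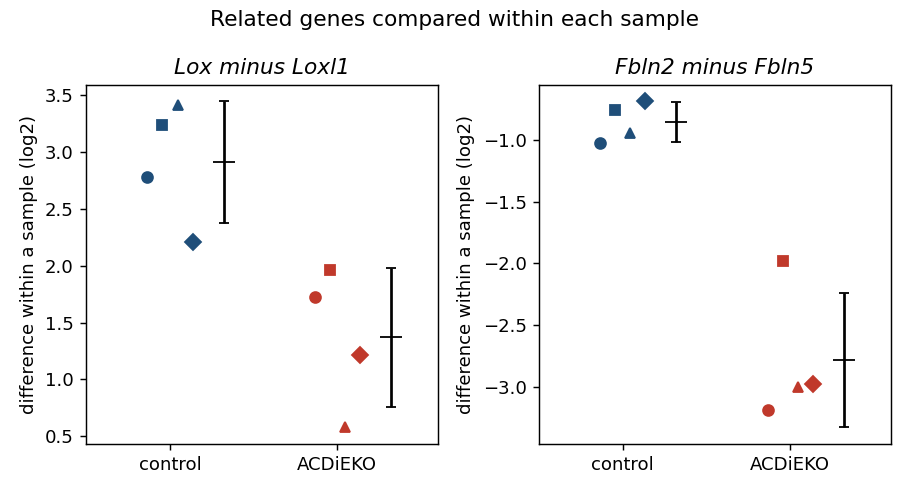
Differences between related genes within each sample (log2), Lox minus Loxl1 on the left and Fbln2 minus Fbln5 on the right, for 4 control and 4 ACDiEKO samples; bars are mean ± SD. Control samples lie between 2.21 and 3.41 on the left and ACDiEKO samples between 0.58 and 1.96, and on the right ACDiEKO samples lie below every control.

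Mgp gave the smallest p among the 8 genes. It measured 17.77, 17.86, 17.89 and 17.63 in control replicates 1 to 4, and 16.18, 16.89, 16.02 and 16.49 in ACDiEKO 1+2, 3, 4 and 5. The controls were tightly grouped, and every ACDiEKO sample lay well below them, with replicate 3 the highest of its group. Mgp fell from 17.79 ± 0.12 to 16.40 ± 0.38 (SD, n = 4 and 4), a difference of -1.39 with a 95% interval from -1.80 to -0.98 (limma, adjusted p = 0.00238). It kept its call when each of the 8 samples was left out in turn (highest adjusted p in limma 0.0104), and 3.19% of tested genes had a larger absolute difference. Without control replicates 3 and 4, Mgp differed by -1.42 (limma, adjusted p = 0.0320) and Fbln2 by -1.56 (limma, adjusted p = 0.0374). In the same fit Eln differed by -0.71 (limma, adjusted p = 0.186).

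Mgp and Fbln2 had much the same order of ACDiEKO samples, highest in replicate 3 and lowest in replicate 4, whereas Eln and Loxl1 were lowest of their group in replicate 3. Likeness was measured as the mean absolute difference between 2 genes over the 8 samples, each gene centred on its own mean. The tested genes nearest to Mgp were Sqor, a mitochondrial sulfide oxidase (0.102), Slc66a2 (0.113) and Fbln2 (0.114). Nearest to Eln were Gm23352 (0.151), Ceacam2 (0.154) and Ssh1, a phosphatase that activates cofilin (0.168). Among the other elastic fiber genes, Ltbp4 (0.283) and Lox (0.300) were closest to Eln, and Loxl1 (1.02) was farthest. Centring over all 8 samples leaves the group difference in these distances. Sqor differed by -1.53 and Slc66a2 by -1.19 between the groups, beside -1.39 for Mgp. Lox was among the closest to Eln although it differed by only -0.17. The distances therefore partly restate the group differences. They describe profiles over 8 samples and carry no test.

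Some marker genes of endothelial cells, smooth muscle and fibroblasts differed between the groups. Of all tested genes, 16.3% were called, 7.33% lower and 8.92% higher. Of 11 endothelial markers, 3 fell, 1 rose and 7 did not pass. Pecam1, a defining marker, fell from 17.51 to 17.67 in controls to 17.07 to 17.35 in ACDiEKO, by 0.37 (limma, adjusted p = 0.0184). Cdh5 and Vwf did not pass and overlapped between groups (differences 0.25 and -0.19; limma, adjusted p = 0.226 and 0.292). The mean of the endothelial markers was 13.37 to 13.81 in controls and 12.76 to 13.30 in ACDiEKO. Of 13 smooth muscle markers tested, 9 rose and 4 did not pass, and the mean of all 15 was 8.31 to 9.07 in controls and 9.37 to 10.21 in ACDiEKO. The defining smooth muscle markers did not follow: Myh11 differed by -0.04 and Cnn1 by -0.27 (limma, adjusted p = 0.894 and 0.577), and Des (6.08 in both groups) lay below the filter value of 6.165.

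Of 11 adventitial fibroblast markers, 1 rose and 3 fell, against 16.3% of all tested genes called in either direction. Their mean was 8.09 to 8.15 in controls and 7.54 to 8.18 in ACDiEKO. Pi16, a defining marker of adventitial fibroblasts, fell by 2.41 (limma, adjusted p = 0.00860). It measured 7.42, 9.56, 7.72 and 7.92 in ACDiEKO 1+2, 3, 4 and 5, against 10.27 to 10.79 in controls, and so was highest in replicate 3 like Mgp and Fbln2. Dpt, another such marker, differed by 0.14 (limma, adjusted p = 0.895). Unlike Pi16, Dpt was 7.04 in ACDiEKO replicate 3 and highest in replicate 5 (9.62). ACDiEKO replicate 5 had the highest mean of leukocyte markers (8.85, against 6.58 to 7.27 in the other samples). The mean of mesothelial markers was 9.05 and 9.10 in ACDiEKO replicates 4 and 5, where Loxl1 was also highest (10.07 and 9.32), and 6.41 to 7.72 in the other samples. In ACDiEKO 1+2 and 3 that mean was 6.90 and 7.16, inside the control range. Loxl1 there was 8.92 and 8.56, still above every control. Adipocyte markers averaged 7.69 to 9.66 in controls and 6.65 to 9.11 in ACDiEKO, and the Schwann cell markers 5.24 to 5.36 over all samples. None of the 7 leukocyte, 4 adipocyte and 3 mesothelial markers tested passed, and no Schwann cell marker was bright enough to be tested. The part of these markers in the results for the elastic fiber genes was not tested. In bulk RNA, fewer cells of a type and less RNA per cell cannot be told apart.

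**Figure D3:**
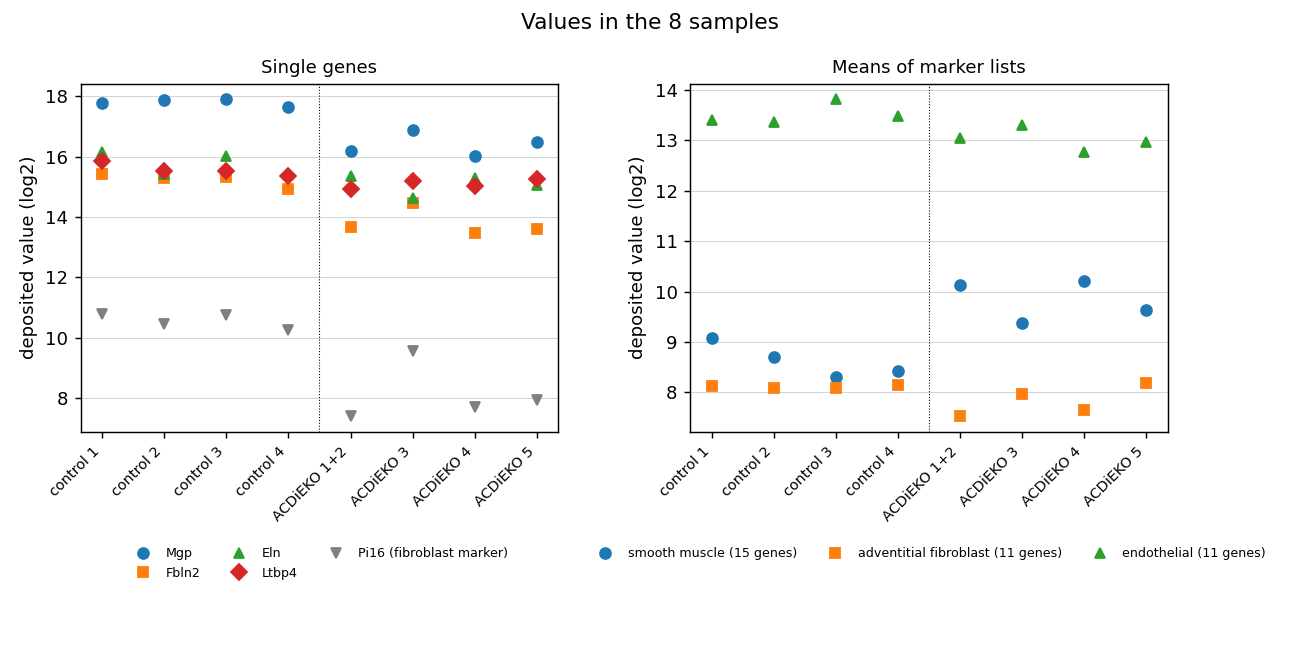
Deposited log2 values in the 8 samples: single genes on the left, and on the right the mean of smooth muscle (15 genes), adventitial fibroblast (11) and endothelial markers (11). Mgp, Fbln2 and Pi16 are lower in ACDiEKO, with replicate 3 the highest of that group. Dpt, a fibroblast marker not plotted, differed by 0.14 and was highest in replicate 5. The fibroblast mean overlaps between the groups, and the smooth muscle mean is higher in every ACDiEKO sample than in any control.

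Other genes of elastic fiber and microfibril assembly mostly did not pass. Of 34 listed, 32 were named and 26 tested, of which 3 fell, 2 rose and 21 did not pass, with a median difference of 0.02. The 5 called of 26 are near the background of 16.3% of all tested genes. Efemp1, which encodes fibulin-3, fell from 13.86 ± 0.14 to 12.44 ± 0.52, a difference of -1.42 (limma, adjusted p = 0.00655). Its values were 11.72, 12.49, 12.61 and 12.95 in ACDiEKO 1+2, 3, 4 and 5, all below the controls at 13.69 to 14.02. Its call ended without control replicates 3 and 4 together (limma, adjusted p = 0.0662). Adamts10, a secreted protein that binds fibrillin, fell by 1.03 (limma, adjusted p = 0.00413). Mmrn2, an endothelial protein of the EMILIN family, fell by 0.96 (limma, adjusted p = 0.00408).

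Fn1, the fibronectin gene, rose by 0.46 (limma, adjusted p = 0.0129), from 16.40 to 16.76 in controls to 17.05 to 17.16 in ACDiEKO. Adamts10, Mmrn2, Efemp1 and Fn1 each kept the call when any single sample was left out. Ltbp2, a fibrillin-binding relative of Ltbp4, rose by 0.53 (limma, adjusted p = 0.0312), and its call ended in 6 of 8 fits that left out a sample (limma, adjusted p 0.0507 to 0.0775 in those). Ltbp2 was dim, at 6.94 in controls and 7.47 in ACDiEKO. Bgn, the proteoglycan biglycan, was nearly level at 18.08 ± 0.03 and 18.05 ± 0.04 (difference -0.04, 95% interval -0.16 to 0.09). Emilin2 (0.04) and Loxl4 (-0.0019) were the other members with the smallest differences.

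Among proteases that cleave elastic fibers and their inhibitors, 21 of 23 listed were named and 12 tested, of which 2 fell and 10 did not pass, with a median difference of -0.37. The 2 called of 12 are near the background of 16.3% and are no result about the list. Cst3, cystatin C, an inhibitor of elastin-degrading cathepsins, fell from 16.37 ± 0.08 to 15.60 ± 0.21, a difference of -0.77 (limma, adjusted p = 0.00377). It held when each sample was left out. Timp3, a matrix-bound metalloproteinase inhibitor, fell by 1.14 (limma, adjusted p = 0.0212). Its call ended without control replicate 2, 3 or 4 or ACDiEKO replicate 4 (limma, adjusted p 0.0506 to 0.0653). The macrophage elastase Mmp12 differed by 0.04, cathepsin L (Ctsl) by -0.06 and Timp2 by -0.20, and none passed. Mmp12 was dim, at 6.72 in controls and 6.76 in ACDiEKO.

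The last list holds genes of MGP carboxylation and of vascular calcification: 19 of 25 were named and 11 tested, of which 3 fell, 1 rose and 7 did not pass, with a median difference of -0.09. The background is 16.3% of all tested genes called. Nt5e, the ectonucleotidase CD73 that makes adenosine from AMP, fell from 13.22 ± 0.67 to 11.22 ± 0.47, with a 95% interval of the difference from -2.82 to -1.18 (limma, adjusted p = 0.00852). Control replicates 1 and 2 (12.75 and 12.53) lay below 3 and 4 (13.84 and 13.75), and without the latter pair the difference was -1.42 (limma, adjusted p = 0.0504). Gas6, another vitamin K dependent protein, fell by 0.53 (limma, adjusted p = 0.0304), with control replicate 4 level with ACDiEKO replicate 5 at 12.20. Fam20c, a kinase of secreted proteins, fell by 0.32 (limma, adjusted p = 0.0273) and was dim (6.91 in controls and 6.59 in ACDiEKO). Slc20a2, a phosphate transporter, rose by 0.71 (limma, adjusted p = 0.0280). The calls of Gas6, Fam20c and Slc20a2 ended in 6, 4 and 5 of the 8 fits that left out a sample. Without ACDiEKO replicate 4 the list held 1 call, and in that fit the calls over all 16403 tested genes went from 2666 to 1680.

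The enzymes that carboxylate MGP did not pass: Ggcx, the carboxylase, differed by -0.17 (95% interval -0.40 to 0.05) and Vkorc1, which recycles vitamin K, by -0.11 (95% interval -0.40 to 0.19). Bglap, the osteocalcin gene, differed by -0.09 and was dim (6.78 in controls and 6.69 in ACDiEKO).

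**Figure D4:**
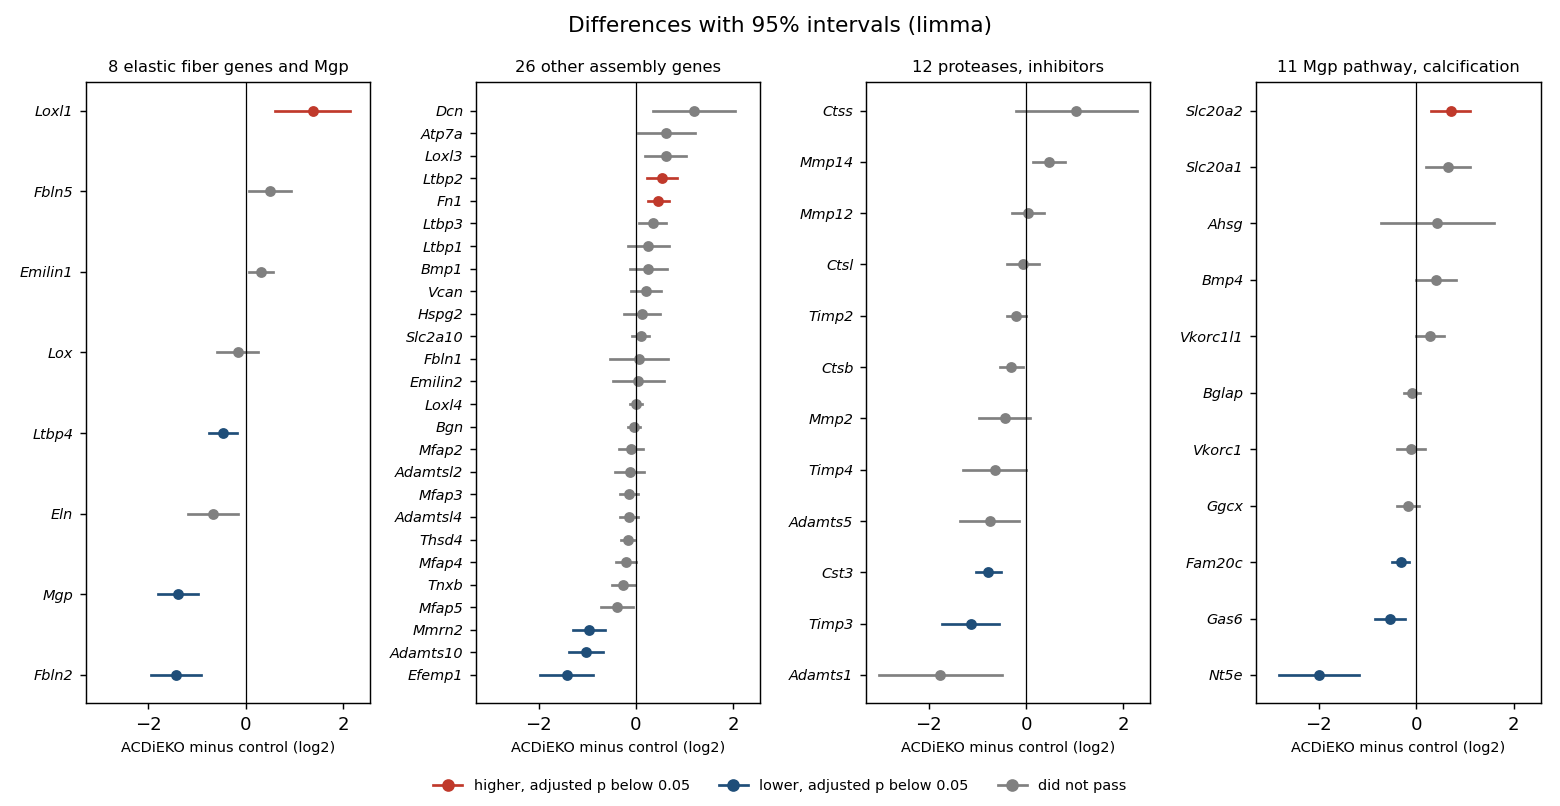
Differences between ACDiEKO and control (log2 units, points) with 95% intervals (lines) from limma for the 8 elastic fiber genes and Mgp and 3 lists of related genes. Fbln2, Mgp, Efemp1 and Nt5e lie furthest below 0 among the genes called lower, and Loxl1 furthest above 0 among those called higher.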

How the data were processed

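Per the submitters' processing notes, the authors made the deposited log2 values with RMA (background correction, normalization and probe summary); version, genome build and annotation are not given in the sources used here. Of 72688 features, 6732 array controls were left out. For each symbol the brightest of its clusters was kept, using the 30604 clusters annotated with 1 symbol. Testing required values above the table's median (6.165) on 4 or more arrays. The comparison used lmFit and eBayes of limma 3.58.1 (R 4.3.3), two-sided, with Benjamini-Hochberg adjustment over all 16403 tested genes at 0.05. Pairs of genes used exact permutation tests (scipy 1.17.1). In simulated data of 16403 genes with independent noise, 200 genes were shifted by 1 or 2 log2 units. Of those shifted by 1 unit, 73.4% were found, and 4.88% of all calls were false. The real data had 2666 calls, and their arrays may share noise, so these are not error rates of the real data. The 8 genes, the lists, tests and alternatives were chosen with earlier results of these data known. Named genes are the 8, list genes that passed (the plan caps them at 10) or differed least (3 per list), defining markers, and the 3 genes nearest to Eln and to Mgp. Title numbers repeat across groups (2 controls share number 3, and the second is called replicate 4). Correlations of deviations between same-numbered arrays were -0.0049, -0.145, 0.0353 and 0.0413, which gave no sign that the numbers pair arrays. Arrays with different numbers were not correlated for reference, so pairing is not excluded. Planned comparisons with Fbn1 and Efemp2 were not run. Per the labels each array is from a single aorta, though whether the near-identical arrays come from separate aortas is not known. The number of arrays limits the precision. Figures used matplotlib 3.10.9.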

Additional observations from a re-analysis of the deposited data

How the results depend on the processing

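Alternatives changed scaling, filter, collapse of clusters, variance model, weights, sample set and animal-number run. Every one of the 8 genes kept its direction under all 22. Of these, 21 kept the calls of Mgp and of Fbln2, 12 that of Loxl1 and 11 that of Ltbp4. The replicate numbers, which gave no sign of pairing the arrays, were also fitted as a block. In limma 0 of the 8 genes and 495 of all tested genes then passed. So did 0 assembly genes, 0 proteases or inhibitors and 1 calcification gene (4 of the 8, 8, 5 and 6 list genes at an unadjusted p under 0.05). Control replicate 2 and ACDiEKO replicates 4 and 5 shared a number with no other sample there, so they added nothing to its group difference. With all 9 arrays in that block (added after seeing the data) 2 of the 8, 2 calcification genes and 2351 of all tested genes passed. Counts otherwise moved by over 1.5 times as follows. Of the 8 genes, 2 passed without ACDiEKO 1+2, with no filter, or without control replicates 3 and 4 (apart in animal number), and 2 to 4 when single replicates were left out (2 without control replicate 2 or 3). All tested genes gave 1692 calls with the animal-number run as a term, 1127 without those 2 controls and 1680 (without ACDiEKO replicate 4) to 2701 without single replicates. Their other counts moved less from 2666: 3083 after quantile normalization, 3710 with 9 arrays and 1822 without ACDiEKO 1+2. With no filter, 1970 of 30142 genes passed. The whole table thus moved too, and the counts of the 8 genes and the lists are to be read beside these. Assembly genes gave 8 after quantile normalization, 3 with the run as a term and 3 without those controls. Proteases and inhibitors gave 6 with 9 arrays, 1 with no filter, the run or without those controls, and 1 to 3 without single replicates (1 without control replicate 2 or 4 or ACDiEKO replicate 4). Calcification genes gave 1 without ACDiEKO 1+2, 2 with no filter or the run, 0 without those controls (limma; 4 at an unadjusted p under 0.05) and 1 (without ACDiEKO replicate 4) to 4 without single replicates, with 2 without control replicate 2, 3 or 4. The exact tests of Lox minus Loxl1 and Fbln2 minus Fbln5 cannot reach 0.05 with 3 against 4 samples: differences were -1.77 to -1.28 and -2.20 to -1.86 without single replicates, -1.66 and -1.80 without ACDiEKO 1+2, and -1.64 and -1.89 without those controls. Taking the mean of all clusters left the values of the 8 genes as they were, since each has 1 cluster. Alternatives of scaling, filter and model were not run for these exact tests.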
